A study of Glycine max with 6 samples.

Results

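The genes described are 3 soybean (Glycine max) transporters of salt tolerance: GmSALT3, also called GmCHX1 (Glyma.03G171600), GmSOS1 (Glyma.08G092000) and GmNHX1 (Glyma.20G229900). They were taken by gene ID, as 3 of the 56044 gene models in the deposited table, in a choice made with earlier results of these data known. Expression was measured by RNA-seq in hairy roots of strain KF1. Hairy roots are transformed roots that grow where a plant has been injected with Agrobacterium rhizogenes. The first group carried a construct that overexpresses GmPHD6 (GmPHD6-OE), the second carried an RNA interference construct against GmPHD6 (RNAi), and the third was the K599 control, whose genotype is labelled wild type. Each group had 2 libraries. K599 is the strain of the bacterium that carried the constructs, and whether the control roots held an empty plasmid is not stated. Per the labels' protocols, 1-week-old seedlings were injected at 2 cm above soil level and kept at 28 °C with the lights on for 16 h and off for 8 h a day, and the roots taken measured 2 to 10 cm. The labels name no salt treatment, so the values describe roots that were not labelled as stressed. The labels do not tell whether libraries of the same group are from different plants, or how many independently transformed roots went into each.

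Sodium that enters a root can be pumped back out, stored in the vacuole or kept away from the shoot, and all of these routes can use the proton gradient across a membrane. SOS1 proteins are plasma membrane Na+/H+ antiporters that export sodium, and in Arabidopsis the SOS2 kinase and the calcium sensor SOS3 activate SOS1. NHX1 proteins sit in the vacuolar membrane, where they exchange Na+ or K+ for protons and so load the vacuole. GmSALT3 belongs to the cation/H+ exchanger (CHX) family and was found through natural variation in soybean, where its intact form limits the build-up of sodium in the shoot. The reference cultivar Williams 82, whose genome underlies the gene IDs, carries a retrotransposon insertion in GmSALT3. Which form KF1 carries was not analysed here. In the RefSeq table of a later Williams 82 assembly (Glycine_max_v4.0) the gene CHX1, a synonym of GmSALT3, has a longer span than the deposited model Glyma.03G171600, close to that of this model and the next one together, while the spans of SOS1 and NHX1 are close to those of their models. The deposited model may thus hold only part of the gene, and every GmSALT3 value below is that of Glyma.03G171600 alone.

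The authors deposited 1 pooled FPKM value per gene and group (fragments per kilobase of transcript, scaled to sequencing depth), with a lower and an upper bound. FPKM is scaled to transcript length, so levels of different genes can be set side by side. Read as 2 standard deviations of counting error on each side, the bounds gave a depth of 14672515, 15362378 and 15236398 fragments per library for overexpression, RNAi and control. On that reading, which the sources used here do not state, the bounds do not hold the spread between plants. With 1 column per group there is no SD, no n and no test across libraries. A gene was called different when its log2(FPKM + 1) values differed by at least 1, which is 2-fold on that scale, and the authors' bounds did not overlap. The rule is one of size. It was applied to 33291 of the 56044 models, those flagged OK throughout that reached 1 FPKM in some column, and all 3 transporters were among them. The level of GmPHD6 itself, which would check the labels, was not analysed here, because the files do not pair IDs with gene names.

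Among the 3 deposited models, that of GmNHX1 was the highest, that of GmSOS1 came second and that of GmSALT3 was lowest, in every group. The place of GmSALT3 in this order holds for Glyma.03G171600 only, since the model after it, described below, read about as high as GmNHX1 in overexpression and control roots. In each column the bounds of neighbours in this order did not overlap. GmNHX1 stood above 85.8%, 84.6% and 86.6% of the tested genes by level in overexpression, RNAi and control roots, and GmSOS1 above 72.1%, 73.5% and 72.9%. GmSALT3 stood above 40.4% of them in overexpression roots, 5.66% in RNAi roots and 49.7% in control roots. The vacuolar and the plasma membrane antiporter thus held their place among the genes of each column. GmSALT3 took a lower place in the RNAi column. At 0.888 FPKM, GmSALT3 was below the 1 FPKM filter in that column and was tested through its overexpression and control values. Models below 1 FPKM in every column were left out, so a value below 1 FPKM ranks low here partly through the filter.

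**Figure D1:**
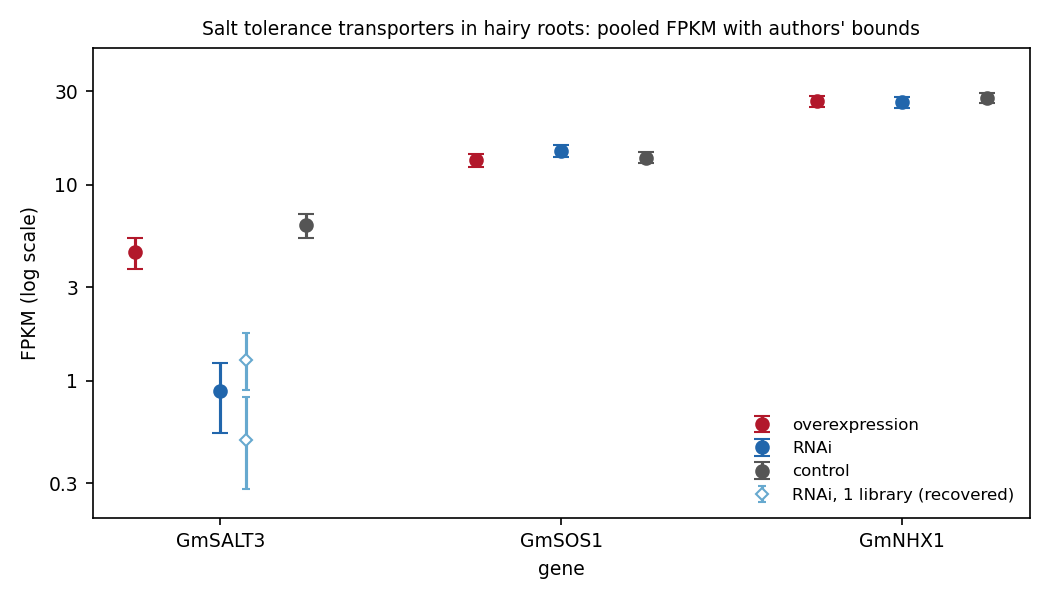
FPKM of the 3 transporters (log axis) in the pooled overexpression, RNAi and control columns, with the authors' bounds as bars. Open diamonds are the 2 RNAi libraries as inferred for GmSALT3 from whole fragments, with 95% counting intervals. GmSALT3 reads 0.888 FPKM with RNAi, below the bounds of both other columns, while the bounds of GmSOS1 and of GmNHX1 overlap across the columns.

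GmSALT3 was lower in RNAi roots than in control roots and was the only one of the 3 transporters called in that comparison. Its model lies on chromosome 3 from 38610796 to 38616471, in the coordinates of annotation Wm82.a2.v1 as deposited. It read 4.53 FPKM in overexpression roots (bounds 3.70 to 5.37), 0.888 FPKM in RNAi roots (0.540 to 1.24) and 6.20 FPKM in control roots (5.34 to 7.06). The RNAi bounds lay wholly below those of both other columns, and the bounds of overexpression and control overlapped narrowly. Less GmSALT3 RNA per cell and fewer of the cells that express it cannot be told apart in bulk roots.

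Against control, the log2(FPKM + 1) difference of GmSALT3 with RNAi was -1.93. On the FPKM scale the RNAi value was 0.143 times the control value, and the bounds allow ratios from 0.0765 to 0.231. This is 1 call among 3 transporters, beside a background of 11.1% of the 33291 tested genes called in either direction with RNAi and 5.55% called lower. Of the 32997 genes with a value above 0 in both columns, 1.24% had a lower difference than GmSALT3. Their median difference was 0.05 with an SD of 0.71. GmSALT3 thus lay in the lower tail of a comparison in which many genes passed the same rule.

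With overexpression, the log2(FPKM + 1) difference of GmSALT3 from control was -0.38, and the gene was not called. The overexpression value was 0.731 times the control value, with ratios from 0.524 to 1.00 allowed by the bounds. In this comparison 2.20% of tested genes were called in either direction, and none of the 3 transporters was. Of the 32952 genes with a value in both columns, 11.0% had a lower difference than GmSALT3.

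Set directly against RNAi roots, the GmSALT3 value in overexpression roots was 5.11 times as high, with ratios from 2.99 to 9.94 allowed by the bounds. The log2(FPKM + 1) difference was 1.55, and the gene was called higher, beside 11.8% of tested genes called in either direction in this comparison and 5.37% called higher. The comparisons of RNAi with control and with overexpression share the RNAi libraries, so both calls rest on the same low value. By this rule GmSALT3 does not meet the submitters' definition of a downstream gene, which asks for a higher value with overexpression as well as a lower one with RNAi. Its pattern of calls (lower with RNAi, higher in overexpression than in RNAi, not called between overexpression and control) was shared by 1118 of the tested genes, or 3.36%.

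The pooled RNAi value of GmSALT3 fitted a split in which both libraries were low. The split takes the pooled value as the mean of whole fragments in 2 libraries of slightly different depth, which the labels do not state. For genes with few fragments the libraries can then be separated where only 1 pair of whole numbers fits. In the RNAi column 71.5% of the values with fewer than 0.05 pairs by chance fitted exactly 1 pair, and the others did not. GmSALT3 in the RNAi column fitted 15 and 37 fragments, where 0.0377 pairs would fit by chance. The RNAi libraries then stood at 0.50 FPKM (95% exact Poisson interval 0.280 to 0.825) and 1.28 FPKM (0.898 to 1.76), counting error only. The intervals did not overlap each other, and both lay below the lower bound of the overexpression column (3.70 FPKM) and of the control column (5.34 FPKM). Which of them is replicate 1 is not known.

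The same separation could not be made for GmSALT3 in overexpression or control roots, where 2.97 and 4.60 pairs would fit by chance. If the pooled value is the mean of 2 libraries, a plain limit follows. Neither RNAi library can then exceed 1.78 FPKM, which is 2 times the pooled value, and at least 1 control library must reach 6.20 FPKM. That both RNAi libraries stood below the lower bounds of the other columns was therefore fixed by the pooled value, whatever the split. The spread between the control libraries for GmSALT3 was not analysed here, and no test across libraries can be given.

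GmSOS1, the plasma membrane sodium exporter, was not called in any of the 3 comparisons. Its model lies on chromosome 8 from 6942770 to 6955699. It read 13.3 FPKM in overexpression roots (bounds 12.4 to 14.3), 14.9 FPKM in RNAi roots (13.9 to 16.0) and 13.8 FPKM in control roots (12.8 to 14.7). Each pair of columns had overlapping bounds, and the values lay close together. The log2(FPKM + 1) difference from control was -0.04 with overexpression and 0.11 with RNAi. The bounds allow a ratio to control of 0.843 to 1.12 with overexpression and 0.950 to 1.24 with RNAi. Between the constructs the difference, overexpression minus RNAi, was -0.15, with ratios from 0.775 to 1.03 allowed.

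GmNHX1, the vacuolar exchanger, was not called in any comparison either. Its model lies on chromosome 20 from 46410284 to 46416473. It read 26.6 FPKM in overexpression roots (bounds 24.8 to 28.4), 26.3 FPKM in RNAi roots (24.6 to 28.0) and 27.7 FPKM in control roots (26.0 to 29.3). Its 3 values overlapped in their bounds. The log2(FPKM + 1) difference from control was -0.05 with overexpression and -0.07 with RNAi, and between the constructs it was 0.02. The bounds allow a ratio to control of 0.848 to 1.09 with overexpression and of 0.840 to 1.08 with RNAi, so counting error leaves room for small differences only. Read as counting error, these limits leave out the spread between plants, and a missing call does not show equal levels.

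More than 80% of the genes with a value in both columns moved further from control with RNAi than GmSOS1 (80.5%) or GmNHX1 (87.7%) in absolute log2(FPKM + 1) difference. For GmSALT3 that share was 2.80%. With overexpression the shares were 87.6% for GmSOS1, 83.2% for GmNHX1 and 21.0% for GmSALT3. GmSOS1 and GmNHX1 belonged to the 28232 tested genes, 84.8%, that were called in none of the 3 comparisons.

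**Figure D2:**
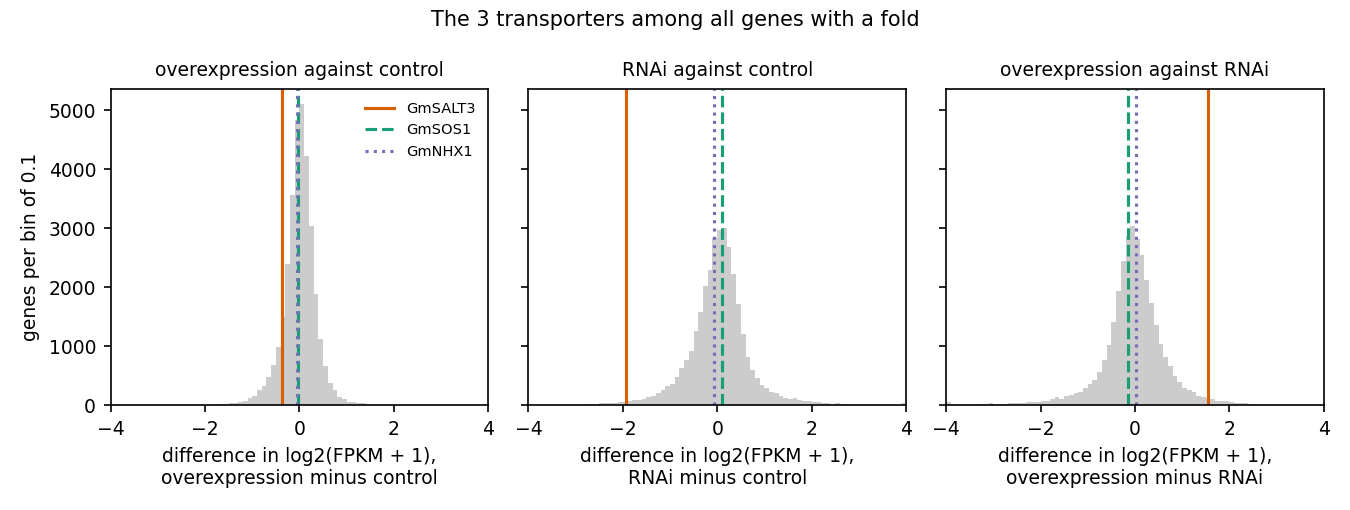
Number of genes by difference in log2(FPKM + 1) for the 3 comparisons (grey bars, bins of 0.1, with genes beyond the axis counted in the outermost bins), and the values of GmSALT3, GmSOS1 and GmNHX1 as vertical lines. GmSALT3 lies at -1.93 for RNAi minus control and at 1.55 for overexpression minus RNAi, while GmSOS1 and GmNHX1 lie near the middle of each distribution.

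The balance among the 3 transporters differed between columns through GmSALT3. GmSOS1 read 2.94 times GmSALT3 in overexpression roots, 16.8 times in RNAi roots and 2.22 times in control roots, by FPKM. GmNHX1 read 5.87, 29.6 and 4.46 times GmSALT3 in overexpression, RNAi and control roots. GmNHX1 over GmSOS1 was 1.99 in overexpression, 1.76 in RNAi and 2.01 in control roots. GmSALT3 made up 10.2% of the summed FPKM of the 3 genes with overexpression, 2.11% with RNAi and 13.0% in control. These ratios are values of pooled columns and were not tested, and those with GmSALT3 hold for Glyma.03G171600 only.

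The gene model directly after GmSALT3 was also lower with RNAi, by a wider margin. This model, Glyma.03G171700, lies on chromosome 3 from 38619810 to 38622471, and 3339 bases separate it from GmSALT3. It read 25.3 FPKM in overexpression roots (bounds 23.2 to 27.4), 1.98 FPKM in RNAi roots (1.41 to 2.54) and 28.2 FPKM in control roots (26.3 to 30.2). Its RNAi bounds lay far below the others, and those of overexpression and control overlapped, as for GmSALT3.

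The log2(FPKM + 1) difference of Glyma.03G171700 with RNAi was -3.30, with an RNAi value 0.0700 times the control value. The bounds allow 0.0467 to 0.0967, a range that overlaps that of GmSALT3. With overexpression its difference from control was -0.15, and it was not called. Its level was 5.58 times that of GmSALT3 in overexpression roots, 2.23 times in RNAi roots and 4.55 times in control roots. The sources used here give this model no name. As the RefSeq span of CHX1 is close to that of both models together, they may belong to 1 gene rather than to neighbours, which was not tested because the IDs and builds do not match. If they do, the 2 lower calls are not separate ones. None of the 3 transporter models overlaps another model in the table.

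Of the 10 nearest gene models around GmSALT3 (5 on each side), 9 were tested, and Glyma.03G171700 was the only one called with RNAi. A count of 1 among 9 is near the 11.1% of all tested genes called with RNAi in either direction. The median log2(FPKM + 1) difference of the 9 tested models from control was 0.35 with RNAi and 0.03 with overexpression. The model directly before GmSALT3, Glyma.03G171500, read 0.840 FPKM in overexpression roots, 1.30 in RNAi roots and 0.809 in control roots, and was not called. The models on the far side of the pair were not called with RNAi either, so the lower calls covered GmSALT3 and its next model within this window. Without a call, Glyma.03G172100 on the far side also read lower with RNAi, at a difference of -0.51. Across the genome, 257 of the 1847 genes called lower with RNAi, or 13.9%, had a direct neighbour that was also called lower. The same share over all tested genes was not computed, so whether 13.9% is more than usual is not known.

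**Figure D3:**
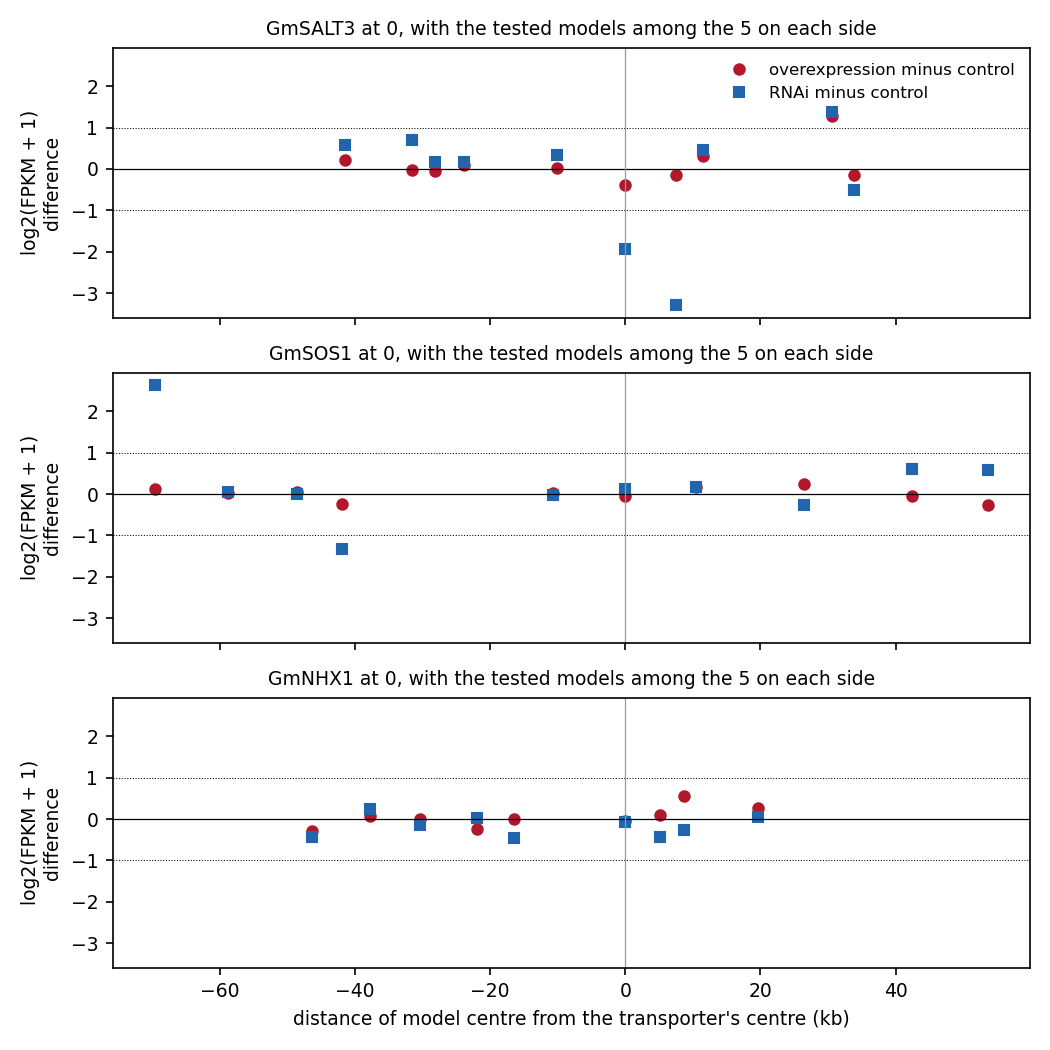
Difference in log2(FPKM + 1) from control for overexpression (circles) and RNAi (squares), by distance in kb from the centre of each transporter, for the tested models among the 5 on each side; dotted lines mark a difference of 1 in size. GmSALT3 and the model after it lie at -1.93 and -3.30 with RNAi, and no model around GmNHX1 passes the rule.

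The models next to GmSOS1 and GmNHX1 were not called in any comparison. Before GmSOS1, Glyma.08G091900 read 2.62 FPKM in overexpression roots, 2.48 in RNAi roots and 2.55 in control roots. After it, Glyma.08G092100 read 56.3 FPKM in overexpression roots, 56.3 in RNAi roots and 50.2 in control roots, a log2(FPKM + 1) difference of 0.16 from control with each construct. The bounds of Glyma.08G092100 with either construct lay above those in control, but the difference was too small for the rule. Before GmNHX1, Glyma.20G229800 read 6.17, 4.17 and 6.13 FPKM in overexpression, RNAi and control roots. After it, Glyma.20G230000 read 4.85, 3.05 and 4.50 FPKM in the same columns. The RNAi value was the lowest of the 3 for both models beside GmNHX1, at log2(FPKM + 1) differences of -0.46 and -0.44 from control, and their bounds overlapped with those in control.

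By level and pattern together, the gene most like GmSALT3 was Glyma.08G117500. Its Euclidean distance from GmSALT3 over the 3 columns of log2(FPKM + 1) was 0.04. It read 4.42 FPKM in overexpression roots, 0.871 in RNAi roots and 6.11 in control roots. The gene most like GmSOS1 was Glyma.13G121100, at a distance of 0.03, with 13.2, 15.1 and 14.0 FPKM in overexpression, RNAi and control. The gene most like GmNHX1 was Glyma.18G245100, at a distance of 0.01, with 26.7, 26.3 and 27.9 FPKM in the same columns. Within a distance of 0.5 there were 60 other tested genes for GmSALT3, 2015 for GmSOS1 and 1120 for GmNHX1. Likeness over 3 pooled values is a description, and the profiles of GmSOS1 and GmNHX1 were common ones in these roots.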

How the data were processed

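The authors deposited FPKM values with confidence bounds and a flag, 1 per gene and group, per the file headers. The submitters' processing notes name TopHat, an aligner that spans splice junctions. Not given in the sources used here are its version, the tool that computed FPKM, what level the bounds stand for, strandedness, and whether starts count from 0 or 1. The column labelled G6 was read as GmPHD6 and taken as overexpression. The genes and rules were chosen with earlier results of these data known.

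Differences of log2(FPKM + 1) were computed in Python 3.11.15 (numpy 2.4.6, pandas 2.3.3). Tested genes were flagged OK throughout and reached 1 FPKM in some column. Genes listed at 0 in a compared column got no fold. The planned fit across libraries was replaced by the rule of size because the columns are pooled. Named genes are the 3 transporters, for each the models directly before and after it, and the most similar tested gene. Planned lists of 12 transporter and pump families and the tissue markers could not be applied, because 0 IDs matched the RefSeq table of Glycine_max_v4.0, so root identity was not checked. That table lists CHX1 (synonym GmSALT3), SOS1 and NHX1 on chromosomes 3, 8 and 20, as the deposited models.

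Fragments behind a value were computed from the width of its bounds. Library values were accepted where a single pair of whole fragments fell within the rounding of the deposited digits and fewer than 0.05 pairs would by chance. Of the values with so low a chance, 70.8%, 71.5% and 72.2% were placed in overexpression, RNAi and control. Paralogous copies that share fragments with the 3 genes were not looked for.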

Additional observations from a re-analysis of the deposited data

How the results depend on the processing

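Of 71 recomputed differences of the 3 genes, 0 called values changed sign and 69 kept the call reported. Changing the filter, the condition on the bounds or the required difference left the differences as they were, so no sign could change there. With another filter the calls of genes still tested could not change either, and a larger required difference could only end calls. Dropping the condition on the bounds could only add calls. A smaller pseudocount keeps the sign and only widens a difference, so it could not end a call either. These counts therefore overstate how far the calls were checked. The call of GmSALT3 ended at a required difference of at least 2 (-1.93 for RNAi minus control and 1.55 for overexpression minus RNAi), where 0 of the 3 genes passed in either comparison. A mean of at least 5 FPKM leaves GmSALT3 untested, so 0 of the other transporters passed there too. With log2(FPKM + 0.1) GmSALT3 stood at -2.67 and 2.23, and with quantile normalization at -1.92 and 1.54. Quantile normalization placed GmNHX1 at -0.19 for RNAi minus control and 0.11 for overexpression minus RNAi; the cause was not tested. Taking each recovered RNAi library alone, a choice made after seeing the data, gave -2.26 and -1.66 for GmSALT3. Neither library can exceed 1.78 FPKM in such a split, which would still be called lower than control. This step therefore could not end the call. The order GmNHX1, GmSOS1, GmSALT3 within a column cannot change with the filter, a pseudocount or quantile normalization. All of these keep ranks within a column, so they do not check the order. Over all genes, 39 of 48 counts stayed within 1.5 times. With log2(FPKM + 0.1) overexpression had 443 higher and 814 lower genes, against 279 and 453. A mean of at least 5 FPKM, with fewer genes tested, left 1207 lower with RNAi. A difference of at least 2 left 75 higher and 50 lower for overexpression, 459 and 368 for RNAi, and 363 and 633 between the constructs. No paired analysis was possible because the columns pool the libraries of each group, and other libraries could not be left out for the same reason.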

Other observations

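Further from GmSOS1, 2 of the 9 tested models among its 10 nearest passed the rule with RNAi, in opposite directions. Over all tested genes the share called with RNAi in either direction was 11.1%. The 2 models were Glyma.08G091500, at 5.33 FPKM in overexpression, 34.8 FPKM in RNAi and 4.78 FPKM in control roots, and Glyma.08G091800, at 10.00, 4.17 and 12.01 FPKM in the same columns. Their log2(FPKM + 1) differences with RNAi were 2.63 and -1.33. Glyma.03G172000, the fourth model after GmSALT3, read 2.17 FPKM in overexpression roots, 2.38 in RNAi roots and 0.312 in control roots. Its differences of 1.27 and 1.36 exceeded 1, but its bounds overlapped with those in control. These models were picked after their values were seen.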
